A study of Homo sapiens with 20 samples.

Results

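COLO 320DM is a human colorectal cancer cell line, and its untreated state is described here against 4 other cancer lines from the same series: ABC-1, UO-31, OVCAR-4 and RKO. The members are the DMSO columns of the expression table, 2 of COLO 320DM and 8 of the other lines, which makes 10 of the 20 RNA-seq samples. The labels name COLO 320DM and RKO as colorectal adenocarcinoma, ABC-1 as lung adenocarcinoma, UO-31 as renal cell carcinoma and OVCAR-4 as high grade ovarian serous adenocarcinoma. All 10 cultures received 0.01% DMSO for 24 h, the vehicle of the tankyrase inhibitor G007-LK, which the other 10 samples received at 1 µM. COLO 320DM, UO-31 and OVCAR-4 were grown in RPMI-1640 and ABC-1 and RKO in EMEM, with fetal bovine serum in both media. The 2 samples of each line are labelled biological replicates. P-values therefore measure the spread between cultures of a line, and a comparison of 1 line with 4 lines has no test at the level of lines or of tumours.

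In the absence of a WNT signal, beta-catenin is held by a destruction complex of AXIN, APC, GSK3 and CK1 kinases and is degraded. Tankyrases mark AXIN for degradation, so their inhibition stabilises the complex. Beta-catenin that escapes binds TCF/LEF factors and turns on target genes, several of which encode feedback inhibitors of the pathway. In the normal colon this pathway maintains crypt stem cells, and most colorectal cancers carry mutations that activate it. A second pathway followed in the study ends in YAP and TAZ, which bind TEAD factors on genes of adhesion and the cytoskeleton. COLO 320DM itself is known for double minutes, small extrachromosomal DNA bodies that carry MYC. DNA copy number was not measured in this series.

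Promoter sequence gives a first view of genes that were high or low in COLO 320DM. Shown are HDC and CDX2, among the genes with the largest gap above all other lines, and CCN2 (listed as CTGF), a YAP/TEAD target that was below all other lines but not among the 15 lowest genes. These promoters are examples that hold the marked words, and they do not stand for the high or low genes at large. The sequences are from RefSeq on GRCh38.p14, run 5′ to 3′ on the minus strand and cover 250 bases before to 50 bases after the start, at chr15:50265677-50265976, chr13:27969266-27969565 and chr6:131951323-131951622. Capitals mark the TCF/LEF words CTTTGAA or CTTTGAT in HDC and CDX2 and the TEAD word GGAATG in CCN2, each searched on both strands.
HDC: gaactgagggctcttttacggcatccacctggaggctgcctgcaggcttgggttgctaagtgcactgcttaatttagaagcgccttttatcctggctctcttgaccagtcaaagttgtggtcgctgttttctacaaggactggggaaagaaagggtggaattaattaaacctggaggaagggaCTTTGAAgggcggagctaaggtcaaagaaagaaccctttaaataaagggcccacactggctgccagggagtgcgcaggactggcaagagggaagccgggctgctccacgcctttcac
CDX2: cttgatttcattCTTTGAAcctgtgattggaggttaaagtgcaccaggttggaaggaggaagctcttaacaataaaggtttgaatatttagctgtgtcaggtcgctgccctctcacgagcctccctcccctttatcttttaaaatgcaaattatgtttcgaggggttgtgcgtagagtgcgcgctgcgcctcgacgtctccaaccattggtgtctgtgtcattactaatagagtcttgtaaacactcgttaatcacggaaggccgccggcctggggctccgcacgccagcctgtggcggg
CCN2: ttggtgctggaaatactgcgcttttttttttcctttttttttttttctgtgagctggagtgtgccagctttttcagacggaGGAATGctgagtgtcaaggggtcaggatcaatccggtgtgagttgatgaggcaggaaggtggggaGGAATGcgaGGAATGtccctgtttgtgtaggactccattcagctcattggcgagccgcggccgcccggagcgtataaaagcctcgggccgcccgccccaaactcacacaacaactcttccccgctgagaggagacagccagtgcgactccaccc
The HDC word began 67 bases before the start and the CDX2 word 238 bases before it. The CCN2 promoter held 3 TEAD words, beginning 169, 104 and 95 bases before the start. A TCF/LEF word was present in 6.86% of all 35116 promoters of this length and a TEAD word in 14% of them. Counted by gene, 8.35% of 27305 genes had at least 1 promoter with the TCF/LEF word and 16.7% at least 1 with the TEAD word. Of the 15 genes highest in COLO 320DM 11 had a promoter entry and 4 of these held a TCF/LEF word (HDC, CDX2, MEP1B and PRSS56). None of the 13 entries among the 15 lowest genes held it. Both sets were picked from the values compared here, and a difference between their shares was not tested. Of the 15 highest genes 13 passed the expression filter described below only through COLO 320DM. The TEAD word was in 4 of the 11 entries of the highest genes and in 3 of the 13 of the lowest. Of 23 WNT targets 11 had an entry and 2 held the TCF/LEF word (SP5 and DKK1), as did 2 the TEAD word. Of 22 YAP/TEAD targets 16 had an entry and 9 held the TEAD word, with the TCF/LEF word in 1. A match is a description of these letters only, and binding was not measured.

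Expression was given as RPKM, reads per kilobase of transcript scaled to the mapped reads of the library. The table holds no counts, so depth is unknown; the steps between low values put the mapped reads of the other libraries at 0.406 to 0.974 times those of COLO 320DM sample 1. The sum of RPKM per library ran from 381878 and 411417 in COLO 320DM to 895010 and 909187 in OVCAR-4, with 413507 to 514173 in ABC-1, UO-31 and RKO. Differences below are on the log2(RPKM + 0.5) scale, COLO 320DM minus the mean of the other lines with each line weighted equally, from limma with Benjamini-Hochberg adjustment over the 12544 genes whose mean over the 5 lines reached 1 RPKM. The median difference over all these genes was −0.29, −0.093 once the 10 libraries had been put on a common scale by median ratios, 0.082 after quantile normalization and 0.17 with equal sums of RPKM. Both scales are given where the direction of many genes is at stake. A second rule asked more: a gene stood apart when COLO 320DM differed from each of the 4 lines in the same direction, with an adjusted p under 0.05 and a difference of at least 1.

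By the first rule 3663 genes were higher in COLO 320DM, a share called of 29.2%, and 6961 were lower, a share called of 55.5%. Higher genes made up 34.5% of the called genes on the deposited scale, 44.8% after median ratio rescaling, 53.8% after quantile normalization and 57.9% with equal sums, so the balance between higher and lower genes followed the scaling. After median ratio rescaling 4928 genes were higher and 6076 lower. The shares of 29.2% and 55.5% given beside the lists below are those of the deposited scale. By the second rule COLO 320DM stood apart above all lines in 354 genes (2.82% called) and below them in 520 genes (4.15% called). Of the 354 genes 173 passed the filter only through COLO 320DM, so a gap above the other lines was set by the filter for them. After rescaling these numbers were 458 (3.65%) and 508 (4.05%), and 346 higher and 461 lower genes were shared by both scales. Under the same rule and the rescaled values, ABC-1 stood apart above in 551 genes (4.39%) and below in 389 (3.1%), UO-31 in 687 (5.48%) and 171 (1.36%), OVCAR-4 in 506 (4.03%) and 191 (1.52%), and RKO in 350 (2.79%) and 491 (3.91%). On this scale COLO 320DM and RKO, the pair of colorectal lines, were the 2 lines with more genes below all others than above them, but with equal sums COLO 320DM had 702 above and 444 below. Over the 12544 genes the Spearman correlation of COLO 320DM was 0.784 with RKO, 0.722 with ABC-1, 0.699 with OVCAR-4 and 0.688 with UO-31, a description over genes that share their libraries.

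**Figure D1:**
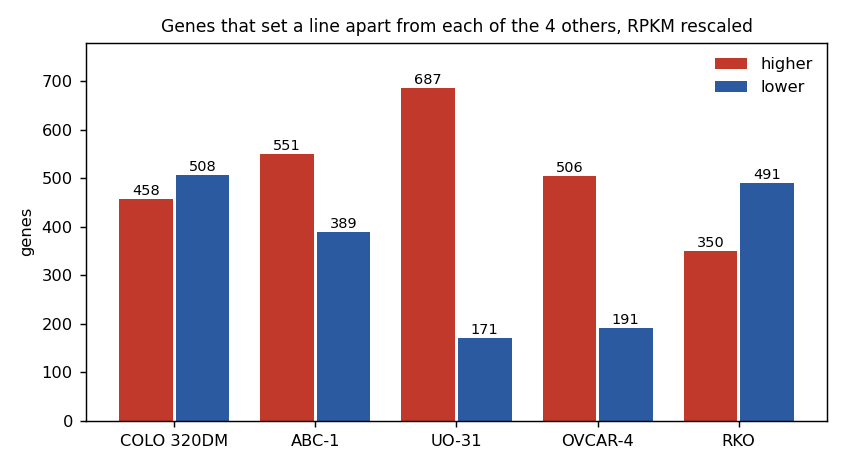
Number of genes that stood apart from every other line (y axis), for each of the 5 lines (x axis) after median ratio rescaling, with red for above each other line and blue for below. COLO 320DM had 458 genes above and 508 below, and only COLO 320DM and RKO had the longer bar on the lower side on this scale; with equal sums COLO 320DM had 702 above and 444 below.

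MYC, the transcription factor of growth and ribosome synthesis that the study follows, was the most abundant transcript among the genes described here as higher. MYC (chr8:128747680-128755197 on hg19) had 1515 and 1655 RPKM in COLO 320DM, against 159 and 155 in RKO, 81.9 and 78.3 in OVCAR-4, 70.2 and 67.9 in UO-31 and 15 and 17 in ABC-1. The difference was 4.68 ± 0.051 (SE, adjusted p = 1.02e-15, limma), and 3.33 to RKO, the nearest line. The highest sample of another line had 159 RPKM. PVT1, the long noncoding RNA gene next to MYC, had 152 and 195 RPKM in COLO 320DM, against 9.87 and 9.65 in RKO, 5.75 and 6.66 in OVCAR-4, 7.19 and 6.52 in UO-31 and 2.96 and 3.32 in ABC-1, a difference of 4.72. POU5F1B, a retrogene of POU5F1 upstream of MYC whose reads may be shared with its parent, had 18.8 and 21 RPKM in COLO 320DM, against 0 to 0.21 RPKM (median 0.0331) in the other samples. FAM84B (LRATD2) had 233 and 307 RPKM in COLO 320DM, against 4.09 to 104 RPKM (median 30) in the other samples, a difference of 3.43.

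The gene order around MYC placed most of the high values in a short stretch. In windows of 7 consecutive tested genes, of which there were 12174, the window from KIAA0196 (WASHC5) to PVT1 had the second highest median difference of all, 3.43 against −0.29 over all placed genes. Its last 4 genes, FAM84B, POU5F1B, MYC and PVT1, stood apart above the other lines. POU5F1B passed the filter only through COLO 320DM, so the filter set its gap, and the rank of the window rests on its inclusion. The 3 genes before these 4 were lower in COLO 320DM than the mean of the others, with differences of −1.37 for TRIB1, −1.16 for NSMCE2 and −0.84 for KIAA0196. On the far side FAM49B (CYRIB) differed by −1.62 and ASAP1, an ARF GTPase-activating protein, by −2.60. The noncoding RNA PCAT1, which lies in this stretch and did not pass the filter, had 2.24 and 2.14 RPKM in COLO 320DM, against 0.0215 to 0.399 RPKM (median 0.0523) in the other samples. MTSS1, 7 tested genes before MYC, was the other gene of this neighbourhood above all lines, at 6.85 and 8.13 RPKM in COLO 320DM, against 0.102 to 2.1 RPKM (median 0.925) in the other samples. Of the 17 genes listed around MYC 11 were tested, 2 of them only through COLO 320DM, with 5 higher and 6 lower (5 and 5 rescaled). The shares over all genes on the deposited scale were 29.2% higher and 55.5% lower.

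**Figure D2:**
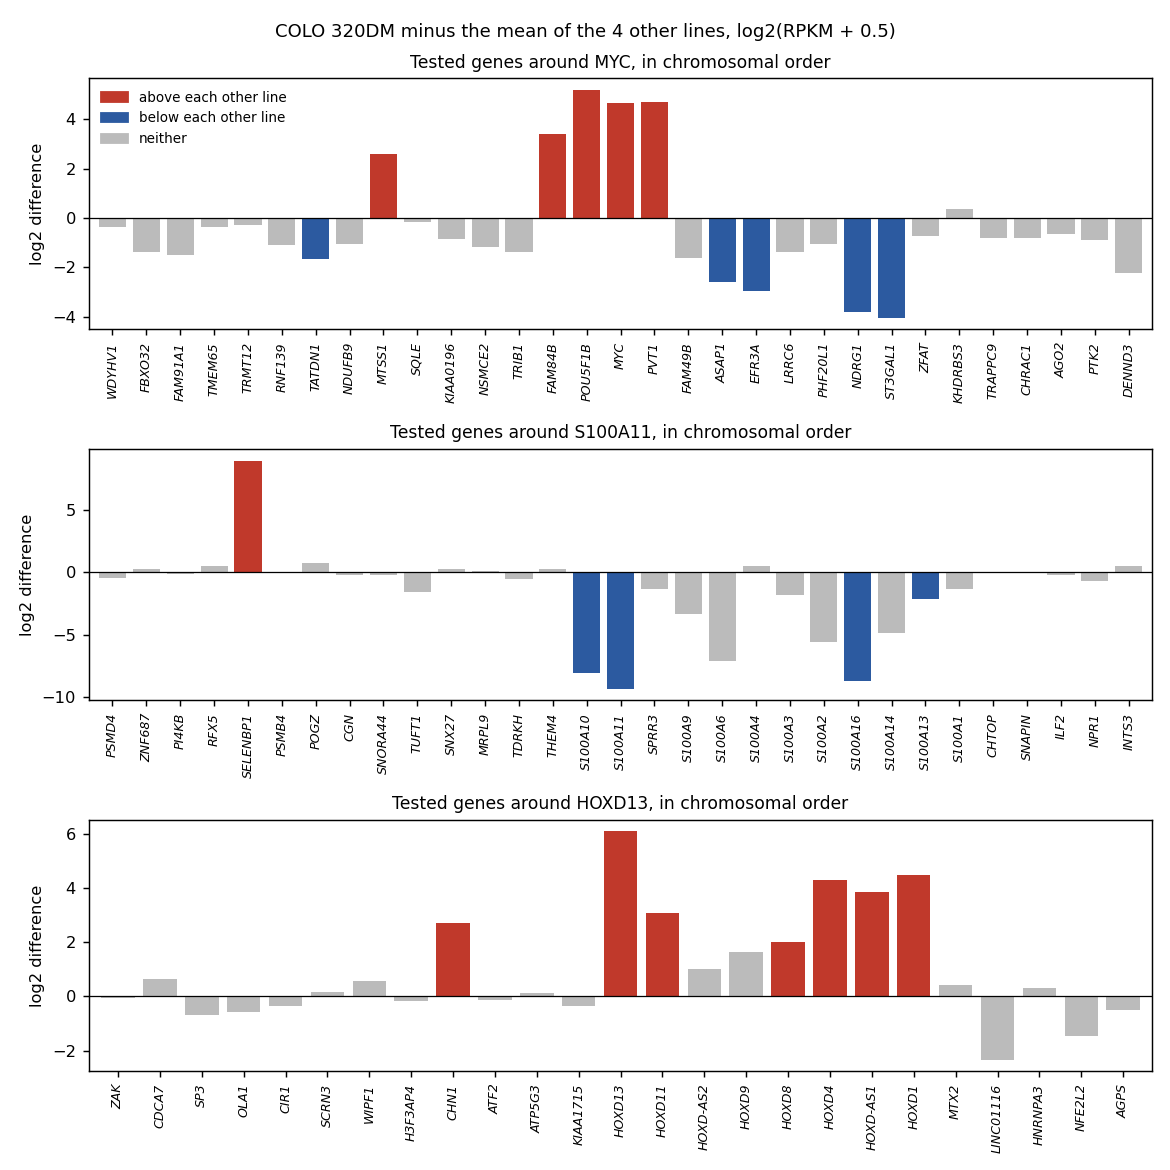
Difference between COLO 320DM and the mean of the other lines (y axis, log2) for tested genes in chromosome order around MYC, S100A11 and HOXD13 (x axis, genes from the anchor gene; red, above each other line; blue, below each other line; grey, neither). Near MYC the bars of FAM84B, POU5F1B, MYC and PVT1 ran from 3.43 to 5.20 between TRIB1 at −1.37 and FAM49B at −1.62, near S100A11 the lowest bar was −9.31, and the HOXD genes reached 6.08.

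Most partners and antagonists of MYC did not stand apart. Of 13 listed genes, MYC included, 12 were tested, with 5 higher and 3 lower (8 and 2 rescaled), beside 29.2% and 55.5% over all genes on the deposited scale. The median difference was 0.12 (0.32 rescaled). MXI1, an antagonist that competes for MAX, was the only one besides MYC to stand apart. It had 13.1 and 15.3 RPKM in COLO 320DM, against 2.44 to 5.67 RPKM (median 5.22) in the other samples. MAX, the obligate partner, had 27.9 and 28.2 RPKM in COLO 320DM, against 22.3 to 30.5 RPKM (median 26.1) in the other samples and was not called. MYCN, a paralog, was at 7.28 and 7.76 RPKM in COLO 320DM and at 86.8 and 89.7 RPKM in ABC-1, and at 0 to 89.7 RPKM over all 8 other samples. Of 38 target genes of MYC in ribosome, polyamine and nucleotide synthesis 36 were tested, with 12 higher, 10 lower and 14 not called (24 higher and 6 lower rescaled), and a median difference of 0.052 (0.25 rescaled) beside −0.29 (−0.093 rescaled) over all genes. After rescaling 4928 of all 12544 genes were higher and 6076 lower. ODC1, the first enzyme of polyamine synthesis, was the only target apart, with 741 and 825 RPKM in COLO 320DM, against 174 to 349 RPKM (median 251) in the other samples and a difference of 1.65. The purine synthesis genes PAICS and PPAT were higher by 1.32 and 1.31.

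WNT/beta-catenin targets held some of the wide gaps. Of 23 listed targets 18 were tested, 3 of these only through COLO 320DM and 2 with under 1 RPKM in it. Of the tested targets 14 were higher, beside 29.2% of all genes, and 4 lower, beside 55.5%, with a median difference of 2.95 (3.15 rescaled) beside −0.29 (−0.093) over all genes. Of these 9 stood apart above all lines, and 1, CCND1, below them, beside 2.82% and 4.15% of all genes.

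Among feedback inhibitors, AXIN2, the scaffold that is itself a target, had 116 and 134 RPKM in COLO 320DM, against 0.644 and 0.515 in RKO, 7.48 and 7.98 in OVCAR-4, 0.337 and 0.194 in UO-31 and 5.46 and 5.97 in ABC-1. The difference was 5.62 ± 0.092 (SE, adjusted p = 2.33e-14, limma), with at most 7.98 RPKM in any other sample. NOTUM, a secreted enzyme that inactivates WNT ligands, had 149 and 148 RPKM in COLO 320DM, against 0.169 and 0.204 in RKO, 14.8 and 15 in OVCAR-4, 0.0606 and 0 in UO-31 and 0.123 and 0.15 in ABC-1. Only OVCAR-4 had more than 1 RPKM of NOTUM among the other lines, and the gap to it was 3.27. APCDD1, a membrane inhibitor, had 219 and 247 RPKM in COLO 320DM, against 0 to 5.08 RPKM (median 0.0501) in the other samples, and the gap to the nearest line, ABC-1, was 5.60. NKD1, which binds Dishevelled, had 17 and 21.5 RPKM in COLO 320DM, against 0.0184 to 1.25 RPKM (median 0.27) in the other samples. RNF43, an E3 ligase that removes WNT receptors, had 23.4 and 26.2 RPKM in COLO 320DM, against 0.0306 to 5.09 RPKM (median 1.23) in the other samples, a difference of 4.04. Its relative ZNRF3 overlapped the other lines, with 15 and 18.1 RPKM in COLO 320DM, against 2.61 to 18.6 RPKM (median 7.3) in the other samples. WIF1, a secreted binder of WNT ligands, had 16.8 and 17.9 RPKM in COLO 320DM and was listed at 0 in all 8 other samples.

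Among nuclear factors and stem cell genes of the pathway, LEF1 and TCF7 stood apart above all lines, while others did not or were too low to test. LEF1, a factor that binds beta-catenin, had 54.3 and 63.4 RPKM in COLO 320DM, against 9.8 and 9.83 in RKO, 0.022 and 0 in OVCAR-4, 0.814 and 0.681 in UO-31 and 0.309 and 0.331 in ABC-1. The difference was 5.28 and the gap to RKO 2.52. TCF7, its relative, had 18.2 and 20.8 RPKM in COLO 320DM, against 0.0773 to 8.26 RPKM (median 3.56) in the other samples. ASCL2, a crypt stem cell factor, had 11.5 and 11.1 RPKM in COLO 320DM, against 0 to 8.72 RPKM (median 0.354) in the other samples and was above all lines with a nearest gap of 0.40, under the size asked by the second rule. TNFRSF19 and BAMBI were likewise above all other samples, by 0.65 and 0.78 over the nearest line. LGR5, the crypt stem cell receptor, did not pass the filter and had 0.413 and 0.552 RPKM in COLO 320DM, against 0 to 1.8 RPKM (median 0.00463) in the other samples. DKK1, a secreted inhibitor that is also a target, had 0.789 and 0.703 RPKM in COLO 320DM, against 0 to 13.1 RPKM (median 1.44) in the other samples, so its groups overlapped. SP5, one of the 2 listed targets with a TCF/LEF word in its promoter, had 1.46 and 1.52 RPKM in COLO 320DM, against 0 to 2.31 RPKM (median 0.201) in the other samples.

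**Figure D3:**
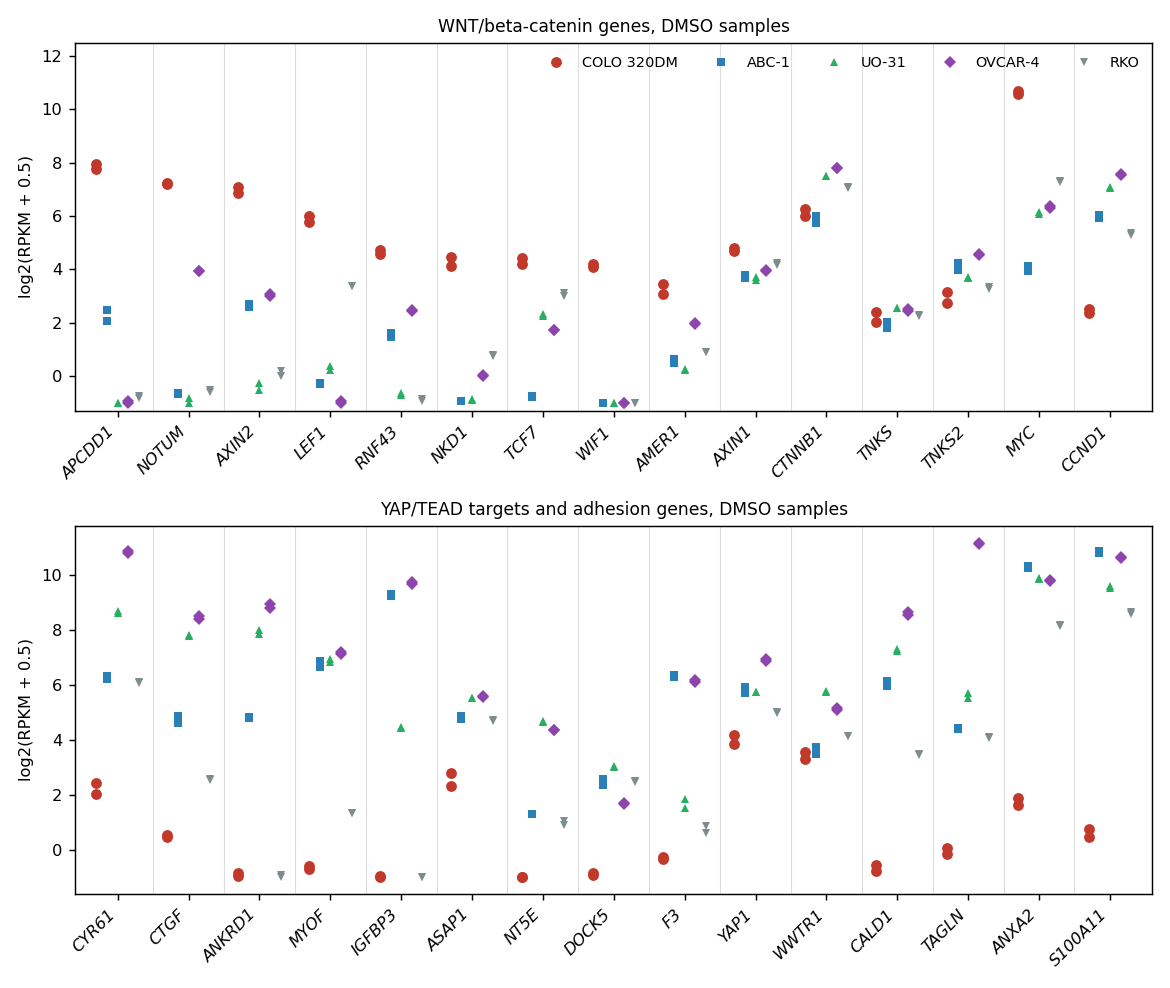
RPKM in each of the 10 DMSO samples (y axis, log scale of RPKM + 0.5; 1 point per sample; red circles, COLO 320DM; blue squares, ABC-1; green triangles, UO-31; purple diamonds, OVCAR-4; grey inverted triangles, RKO) for WNT genes and for YAP and adhesion genes. The COLO 320DM points for AXIN2 (116 and 134) and NOTUM (149 and 148) lay above all others, and those for CYR61 (3.55 and 4.92) and CTGF (0.882 and 0.947) below all others.

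Of the genes of the destruction complex and the tankyrases, AXIN2 and AMER1 stood apart above all lines, and none below them. Of 14 listed 13 were tested, 3 were higher (AXIN1, AXIN2 and AMER1) and 9 lower (3 higher and 6 lower rescaled), with a median difference of −0.34 (−0.15 rescaled), beside −0.29 (−0.093) over all genes. On the deposited scale 29.2% of all genes were higher and 55.5% lower, with 2.82% apart above and 4.15% apart below. AMER1, which brings APC to the membrane, stood apart with 8 and 10.5 RPKM in COLO 320DM, against 0.687 to 3.43 RPKM (median 1.21) in the other samples and a difference of 2.35. AXIN1 had 25.2 and 27.3 RPKM in COLO 320DM, against 11.8 to 18.2 RPKM (median 14.2) in the other samples, a difference of 0.84. APC had 3 and 4.11 RPKM in COLO 320DM, against 1.6 to 10.1 RPKM (median 4.73) in the other samples. CTNNB1, which encodes beta-catenin, had 63.2 and 76 RPKM in COLO 320DM, against 53.6 to 225 RPKM (median 159) in the other samples. The groups overlapped for both genes. TNKS had 3.55 and 4.86 RPKM in COLO 320DM, against 4.31 and 4.42 in RKO, 4.97 and 5.3 in OVCAR-4, 5.44 and 5.35 in UO-31 and 3 and 3.62 in ABC-1, and was not called. TNKS2 was lower, at 6.25 and 8.42 RPKM in COLO 320DM, against 9.11 to 23.4 RPKM (median 13.9) in the other samples, a difference of −0.96 (−0.76 rescaled), and RNF146, the ligase that acts on tankyrase-marked AXIN, differed by −0.74.

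CDX2, a homeobox factor of the intestine, had one of the widest gaps in the data. CDX2 (chr13:28535055-28543452 on hg19) had 732 and 763 RPKM in COLO 320DM, against 6.88 and 7.43 RPKM in RKO and 0.403 and 0.603 RPKM in OVCAR-4, and was listed at 0 in ABC-1 and UO-31. The gap to RKO was 6.61 (largest adjusted p of the 4 contrasts 3.09e-14, limma). PDX1, the neighbouring homeobox gene, had 8.67 and 10.3 RPKM in COLO 320DM, against 0 to 1.6 RPKM (median 0.0318) in the other samples. Of 21 listed genes near CDX2 at 13q12 16 were tested, 1 only through COLO 320DM and 2 with under 1 RPKM in it. All 16 were called, with 9 higher and 7 lower (9 and 5 rescaled), beside 29.2% and 55.5% over all genes on the deposited scale. The 2 homeobox genes alone stood apart. CDK8, a kinase of the Mediator complex that lies in the same region, had 20.4 and 25.1 RPKM in COLO 320DM, against 7.08 to 18 RPKM (median 13.3) in the other samples, and its gap to the nearest line was 0.41.

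Most other listed genes of intestinal epithelium were low. Of 27 genes of intestinal epithelium 5 were tested, with 2 higher, CDX2 among them, and 3 lower (KLF5, GATA4 and GATA6), 2 of these with under 1 RPKM in COLO 320DM. The shares over all genes were 29.2% higher and 55.5% lower. CDH17, an intestinal cadherin, had 3.9 and 4.73 RPKM in COLO 320DM, against 0 to 0.498 RPKM (median 0.00484) in the other samples. KRT20 had 3.7 and 3.44 RPKM in COLO 320DM, against 0 to 0.111 RPKM (median 0.0321) in the other samples. TSPAN8 had 3.38 and 3.58 RPKM in COLO 320DM, against 0 to 0.0795 RPKM (median 0.0185) in the other samples. These 3 were above every other sample but too low overall to pass the filter. CDX1, HNF4A, VIL1, LGALS4 and GPA33, which define the type, were between 0 and 0.305 RPKM in COLO 320DM, and MUC2 and FABP1 were at or near 0. GATA6, a gut and endoderm factor, was below all lines, at 0 and 0.0317 RPKM in COLO 320DM, against 1.51 to 19.7 RPKM (median 8.86) in the other samples. Of the 22 listed genes that were not tested 3 reached 1 RPKM in COLO 320DM. SELENBP1 and MEP1B, intestinal genes outside that list, were high and are described below. RKO, the other colorectal line, had 6.88 and 7.43 RPKM of CDX2 and was likewise near 0 for CDH17, KRT20 and VIL1.

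Epithelial genes were low as well. All 25 listed epithelial genes were tested, 24 were lower and 1 (DSP) higher, and 17 had under 1 RPKM in COLO 320DM. The median difference was −3.55 (−3.38 rescaled), beside −0.29 (−0.093 rescaled) over all genes, of which 55.5% were lower. Only 2 stood apart from every line, the protease inhibitor SPINT1 and the desmosome gene PKP3, since RKO was also low for most. E-cadherin (CDH1) had 0.304 and 0.149 RPKM in COLO 320DM, against 0.0581 and 0.104 in RKO, 106 and 111 in OVCAR-4, 0.402 and 0.389 in UO-31 and 69.2 and 80.8 in ABC-1. EPCAM had 1.1 and 1.24 RPKM in COLO 320DM, against 2.71 to 609 RPKM (median 234) in the other samples. Keratin 19 (KRT19) had 1.49 and 0.562 RPKM in COLO 320DM, against 0.258 and 0.552 in RKO, 1153 and 1147 in OVCAR-4, 2206 and 2069 in UO-31 and 1334 and 1283 in ABC-1. In each case ABC-1 and OVCAR-4 were far higher, and UO-31 was high for KRT19. Keratin 8 (KRT8) was present at 73.3 and 74.6 RPKM in COLO 320DM, below 3 of the 4 other lines, and keratin 18 (KRT18) at 76.3 and 76.2 RPKM. Of 22 mesenchymal genes 16 were tested, 3 only through COLO 320DM and 6 with under 1 RPKM in it. Of these 7 were higher and 9 lower, beside 29.2% and 55.5% over all genes. Vimentin (VIM) had 539.7 and 579.6 RPKM in COLO 320DM, second to UO-31 with 1927 and 1925 RPKM, while fibronectin (FN1) was at 1.17 and 1.43 RPKM in COLO 320DM. PRRX1, a homeobox factor of mesenchyme, had 25.3 and 31.7 RPKM in COLO 320DM, against 0 to 0.0352 RPKM (median 0) in the other samples, and type III collagen (COL3A1) had 20.6 and 24.8 RPKM in COLO 320DM, against 0 to 0.912 RPKM (median 0.0186) in the other samples.

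The genes with the largest gap to the nearest line were of mixed kind, and 13 of the 15 highest passed the filter only through COLO 320DM. HDC, histidine decarboxylase, the enzyme that makes histamine, had 104 and 113 RPKM in COLO 320DM and at most 0.0397 RPKM elsewhere, a gap of 7.69. SELENBP1, a selenium-binding protein of differentiated intestinal epithelium, had 968 and 1002 RPKM in COLO 320DM, against 0.0216 to 8.97 RPKM (median 1.97) in the other samples and a gap of 6.74. It lies 11 tested genes from S100A11 on chromosome 1, one of the lowest genes in the data. THBS4, a thrombospondin of the matrix, had 91.4 and 103 RPKM in COLO 320DM, against 0.0247 to 0.556 RPKM (median 0.086) in the other samples, a difference of 7.20. CD36, a receptor for fatty acids and thrombospondins, had 148 and 180.4 RPKM in COLO 320DM, against 0.0579 to 2.97 RPKM (median 0.115) in the other samples, a difference of 7.45. TSPAN7, a tetraspanin, had 63.9 and 74.5 RPKM in COLO 320DM, against 0.0251 to 0.377 RPKM (median 0.157) in the other samples, a difference of 6.71. SLC7A8, an amino acid transporter, had 109 and 127 RPKM in COLO 320DM, against 0 to 1.99 RPKM (median 0.852) in the other samples. The others among the 15 highest were CDX2, LY6G6D, PCP4, MEP1B, PRSS56, HOXD13, LRRN3, PRRX1 and CTAG2, at 25.3 to 763 RPKM in COLO 320DM. MEP1B is a brush-border protease and had 33.9 and 45.9 RPKM in COLO 320DM, against 0 to 0.0344 RPKM (median 0.00752) in the other samples. CTAG2, a cancer-testis antigen with a near-identical copy, had 26.3 and 27.2 RPKM in COLO 320DM and was listed at 0 in every other sample.

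**Figure D4:**
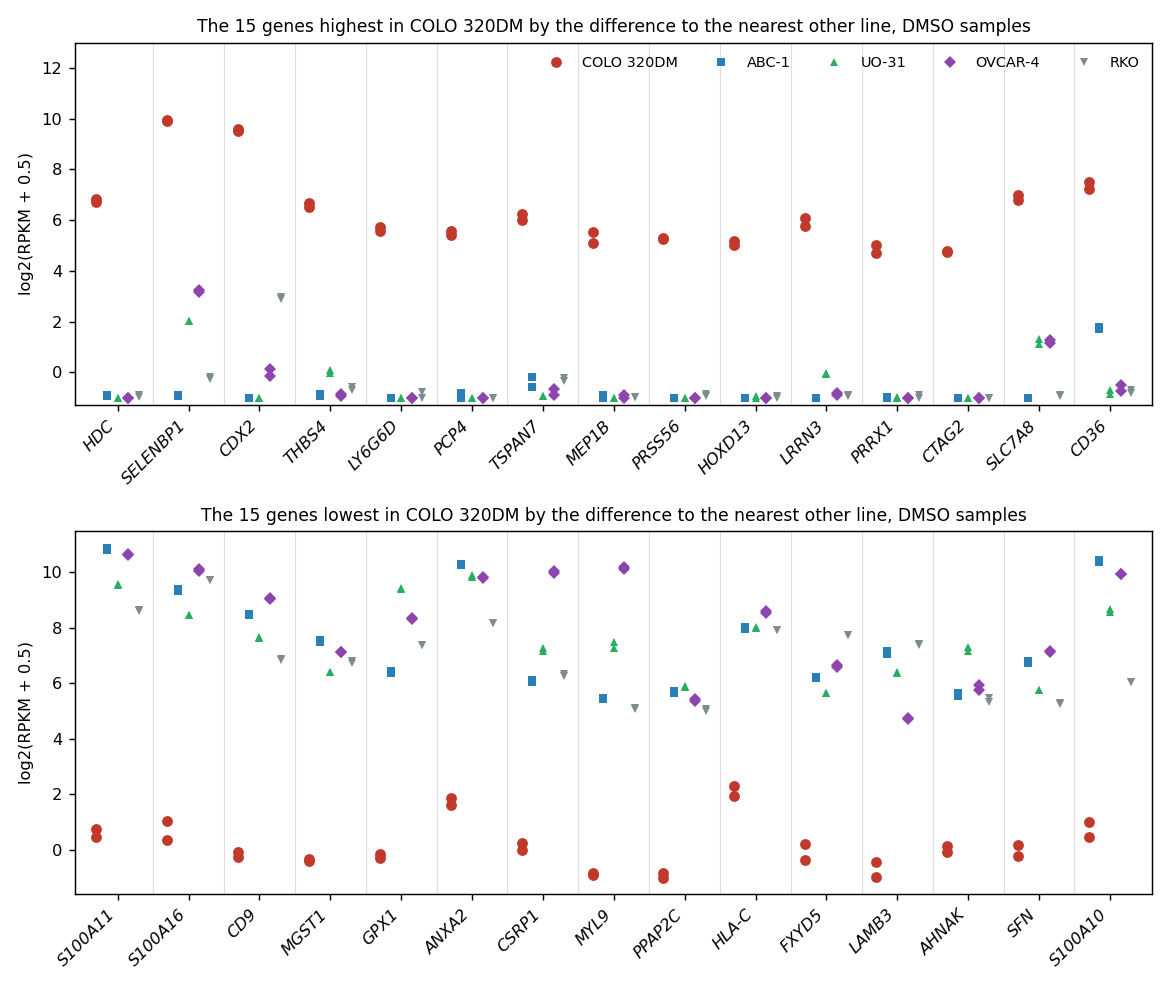
RPKM in each of the 10 DMSO samples (log scale of RPKM + 0.5; symbols and colours by line, COLO 320DM in red) for the 15 genes highest and the 15 lowest by the gap to the nearest line. For the highest genes COLO 320DM lay at 25.3 to 1002 RPKM, and for the lowest genes at 0 to 4.37 RPKM.

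Homeobox and cancer-testis genes formed runs along the chromosomes. The window with the third highest median difference (3.09) lay in the HOXD cluster, where 5 of 7 genes stood apart above all lines. These 5 passed the filter only through COLO 320DM, so the filter set their gap above the other lines. HOXD13, the last gene of the cluster, had 31.7 and 36.1 RPKM in COLO 320DM, against 0 to 0.0299 RPKM (median 0) in the other samples. HOXD4 had 11.8 and 11.9 RPKM in COLO 320DM, against 0 to 0.386 RPKM (median 0.121) in the other samples. HOXD9 overlapped the other lines, with 2.13 and 2.18 RPKM in COLO 320DM, against 0 to 3.63 RPKM (median 0.0226) in the other samples. The genes next to the cluster, MTX2 and KIAA1715 (LNPK), did not stand apart. The fourth window (3.04), named after its values were seen, lay in the HOXC cluster, where HOXC12 had 18 and 22.6 RPKM in COLO 320DM and was listed at 0 in every other sample. HOTAIR, the antisense RNA of this cluster, had 13.4 and 14.4 RPKM in COLO 320DM, against 0 to 1.38 RPKM (median 0.065) in the other samples, and reads from overlapping genes on opposite strands cannot be told apart. The highest window (3.88) was on chromosome X, where MAGEA12 had 56 and 64.5 RPKM in COLO 320DM, against 0 to 0.851 RPKM (median 0.0217) in the other samples, CSAG1 had 40.6 and 42.3 RPKM in COLO 320DM, against 0 to 1.14 RPKM (median 0) in the other samples and MAGEA6 had 43.1 and 48.4 RPKM in COLO 320DM, against 0 to 1.91 RPKM (median 0) in the other samples. These MAGEA genes are near-identical copies, so the split of reads among them is uncertain. HOXC12, HOTAIR, MAGEA12, CSAG1 and MAGEA6 also passed the filter only through COLO 320DM, so the filter set their gaps above the other lines. The ranks of these windows rest in part on such genes.

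Neuroendocrine genes gave a divided picture. Of 36 granule and neuronal genes 14 were tested, 3 of them with under 1 RPKM in COLO 320DM, with 7 higher and 6 lower, beside 29.2% and 55.5% over all genes, and a median difference of 0.69 (0.93 rescaled). SNAP25, a protein of vesicle fusion, stood apart with 28.8 and 34 RPKM in COLO 320DM, against 0.0207 to 3.49 RPKM (median 1.34) in the other samples and a difference of 4.53. The vesicle protein SV2A had 26.7 and 33.3 RPKM in COLO 320DM, against 0.0079 to 12.3 RPKM (median 3.14) in the other samples. Carboxypeptidase E (CPE), which trims peptide hormones, had 31.9 and 38.6 RPKM in COLO 320DM, against 0.0145 to 11.6 RPKM (median 6.88) in the other samples. After rescaling 5 genes stood apart, with RAB3A and PCSK1N added. UCHL1, a ubiquitin hydrolase of neurons, had 416 and 442 RPKM in COLO 320DM but 578 and 565 RPKM in UO-31. The granule protein chromogranin A (CHGA) was at 0.0164 and 0 RPKM in COLO 320DM. Synaptophysin (SYP) had 2.05 and 2.03 RPKM in COLO 320DM, against 0.112 to 1.27 RPKM (median 0.43) in the other samples. Of 22 neuroendocrine transcription factors 4 were tested, with 1 (HES6) higher and 3 lower, and the factors NEUROD1, INSM1 and NEUROG3 were at 0 to 0.0266 RPKM in COLO 320DM. Of 36 amine and peptide hormone genes 34 were in the table and 4 were tested. Neuropeptide W (NPW), which passed only through COLO 320DM, stood apart with 7.53 and 6.41 RPKM in COLO 320DM, against 0 to 0.758 RPKM (median 0.0799) in the other samples. Galanin (GAL) was above every other sample, with a gap of 0.65 to RKO. HDC, described above, was not in that list.

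The lowest genes were led by small calcium-binding proteins. S100A11 (chr1:152004982-152020383 on hg19), which binds annexins, had 1.2 and 0.871 RPKM in COLO 320DM, against 389 and 404 in RKO, 1566 and 1619 in OVCAR-4, 776 and 742 in UO-31 and 1793 and 1887 in ABC-1. The difference was −9.31 ± 0.062 (SE, adjusted p = 2.95e-17, limma), and −8.02 to RKO, the nearest line. Its neighbour S100A10, the partner of annexin A2, had 0.893 and 1.53 RPKM in COLO 320DM, against 65.5 to 1395 RPKM (median 692) in the other samples. Annexin A2 (ANXA2), on chromosome 15, had 2.58 and 3.18 RPKM in COLO 320DM, against 287 to 1277 RPKM (median 916) in the other samples, a difference of −7.78. S100A16 had 0.786 and 1.58 RPKM in COLO 320DM, against 351 to 1102 RPKM (median 755) in the other samples. Of 28 annexins, S100 proteins and galectins 23 were tested, 7 of them with under 1 RPKM in COLO 320DM, with 21 lower and 2 (ANXA6 and S100A4) higher and a median difference of −2.96 (−2.85 rescaled). Of these 8 stood apart below all lines. Over all genes 55.5% were lower and 4.15% apart below, with a median difference of −0.29 (−0.093 rescaled). S100A6 and S100A2 were low in ABC-1 too. S100A6 had 0 and 2.22 RPKM in COLO 320DM, against 1117 and 1114 in RKO, 614 and 624 in OVCAR-4, 777 and 709 in UO-31 and 0.586 and 1.06 in ABC-1. The lowest window of all (median −4.82) lay in the S100 cluster of chromosome 1. The next lowest (−3.52) ran from RNF144B to DCDC2 on chromosome 6, and the third (−3.17) held the metallothioneins of chromosome 16. MT2A, a metal-binding protein, had 93.1 and 98.9 RPKM in COLO 320DM and 59.2 and 64.9 RPKM in ABC-1, against 2988 and 2971 RPKM in UO-31, 962 and 955 RPKM in OVCAR-4 and 3237 and 3151 RPKM in RKO. Each of these 3 windows held at most 1 gene that stood apart, since ABC-1, UO-31 or RKO shared many of the low values.

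Other genes among the 15 lowest serve redox defence, membranes and the cytoskeleton. GPX1, glutathione peroxidase, had 0.313 and 0.399 RPKM in COLO 320DM, against 82.7 to 702 RPKM (median 243) in the other samples, a difference of −8.12. MGST1, a microsomal glutathione transferase, had 0.249 and 0.293 RPKM in COLO 320DM, against 84.2 to 187 RPKM (median 125) in the other samples, a difference of −7.34. CD9, a tetraspanin, had 0.439 and 0.332 RPKM in COLO 320DM, against 114 to 538 RPKM (median 278) in the other samples, a difference of −8.19. The epithelial genes SFN (14-3-3 sigma) and LAMB3 (a laminin chain) had 0.357 and 0.627 and 0.00786 and 0.239 RPKM in COLO 320DM, against 38.1 to 143 and 25.7 to 169 RPKM in the other samples. For all 15 genes the 2 COLO 320DM samples were below every other sample.

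YAP/TEAD targets were low almost throughout. All 22 listed targets were tested, 10 of them with under 1 RPKM in COLO 320DM, with 20 lower and 2 (CCDC80 and TGFB2) higher, where 55.5% of all genes were lower. The median difference was −2.15 (−1.98 rescaled) beside −0.29 (−0.093) over all genes, and 7 stood apart below all lines, beside 4.15% of all genes. CYR61 (CCN1), a matricellular protein, had 3.55 and 4.92 RPKM in COLO 320DM, against 68.5 and 67 in RKO, 1771 and 1866 in OVCAR-4, 415 and 399 in UO-31 and 73.5 and 79.9 in ABC-1. The difference was −5.74 ± 0.08 (SE, adjusted p = 6.68e-15, limma). CTGF (CCN2), whose promoter with 3 TEAD words is printed above, had 0.882 and 0.947 RPKM in COLO 320DM, against 5.54 and 5.39 in RKO, 341 and 364 in OVCAR-4, 227 and 221 in UO-31 and 23.8 and 28.6 in ABC-1. The difference was −5.40, and −2.08 to RKO, the nearest line. For both genes OVCAR-4 was the highest line and RKO the nearest to COLO 320DM. ANKRD1, a further classic target, was near 0 in COLO 320DM and in RKO, with 0.0513 and 0.02 RPKM in COLO 320DM, against 0.0351 and 0 in RKO, 443 and 499 in OVCAR-4, 257 and 234 in UO-31 and 27.3 and 28.2 in ABC-1. MYOF, a membrane repair protein, had 0.119 and 0.163 RPKM in COLO 320DM, against 2 to 148 RPKM (median 117) in the other samples. NT5E, an ectonucleotidase, had 0.00834 and 0.00975 RPKM in COLO 320DM, against 1.38 to 25.1 RPKM (median 11.1) in the other samples.

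Genes for YAP, TAZ and the TEAD factors were expressed in all lines. Of 21 genes for YAP, TAZ, TEAD factors and Hippo regulators all were tested, with 6 higher and 14 lower (7 higher and 13 lower rescaled), a median difference of −1.18 and none apart on the deposited scale. On that scale 29.2% of all genes were higher and 55.5% lower, with a median of −0.29. YAP1 had 14 and 17.9 RPKM in COLO 320DM, against 31.2 and 31.9 in RKO, 115 and 122 in OVCAR-4, 52.8 and 52.6 in UO-31 and 51.8 and 60.5 in ABC-1. The difference was −1.83 (−1.63 rescaled, where YAP1 alone of this list stood apart). WWTR1, which encodes TAZ, had 9.34 and 11.3 RPKM in COLO 320DM, against 10.9 to 55.1 RPKM (median 25.5) in the other samples, with overlapping groups. TEAD1 had 13.6 and 18.7 RPKM in COLO 320DM, against 14.3 to 29.6 RPKM (median 20.7) in the other samples. TEAD4 had 32.8 and 33.7 RPKM in COLO 320DM, against 20.5 to 37.3 RPKM (median 27.7) in the other samples. The kinase LATS1 had 5 and 7.35 RPKM in COLO 320DM, against 3.88 to 5.74 RPKM (median 4.93) in the other samples. LATS2, itself a YAP/TEAD target, differed by −1.48.

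Adhesion, caveolar and actin-bundle genes were low in the same samples. All 38 were tested, 17 with under 1 RPKM in COLO 320DM, with 34 lower and 4 higher, a median difference of −2.52 (−2.33 rescaled) and 11 apart below all lines, where 55.5% of all genes were lower and 4.15% apart below. MYL9, a myosin light chain, had 0.028 and 0.0656 RPKM in COLO 320DM, against 33.6 to 1167 RPKM (median 99.7) in the other samples, a difference of −7.90. Caldesmon (CALD1) had 0.0911 and 0.183 RPKM in COLO 320DM, against 10.6 to 399.7 RPKM (median 111) in the other samples, a difference of −7.01. TAGLN, an actin-binding protein, had 0.39 and 0.557 RPKM in COLO 320DM, against 16.3 to 2329 RPKM (median 33.2) in the other samples. PTRF (CAVIN1), a coat protein of caveolae, had 1.39 and 1.66 RPKM in COLO 320DM, against 56.2 to 309 RPKM (median 89.4) in the other samples, and caveolin 1 (CAV1) had 0.658 and 0.757 RPKM in COLO 320DM, against 3.42 to 156 RPKM (median 40.6) in the other samples. Lamin A/C (LMNA) had 6.63 and 7 RPKM in COLO 320DM, against 39.3 to 456 RPKM (median 307) in the other samples, a difference of −4.80. ITGB1, the common chain of many integrins, had 54.8 and 69.9 RPKM in COLO 320DM, against 292 to 779 RPKM (median 698) in the other samples. Integrins ITGA2 and ITGA6 were above all lines, with gaps of 0.52 and 0.42 to the nearest.

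**Figure D5:**
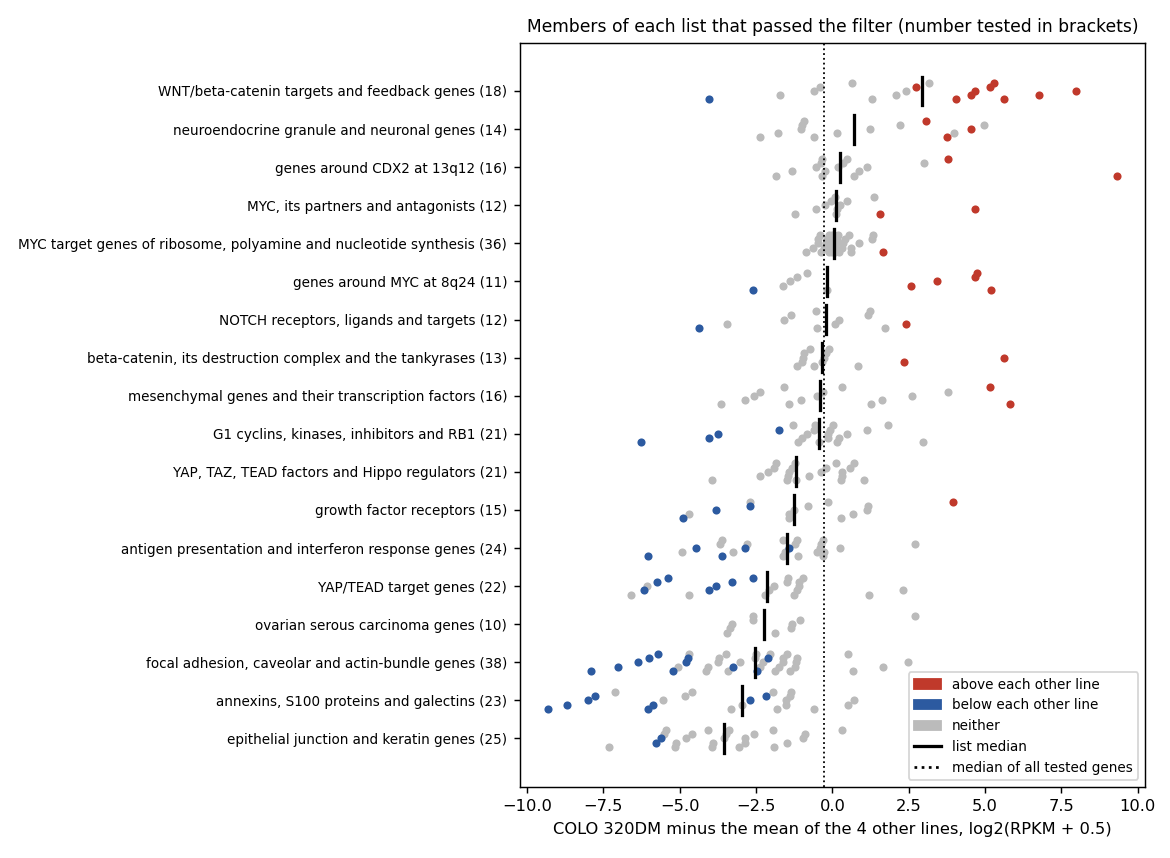
Difference between COLO 320DM and the mean of the other lines (x axis, log2) for the tested members of the gene lists, 1 point per gene, with the median of each list marked. The WNT targets had a median of 2.95, the YAP/TEAD targets of −2.15 and the adhesion genes of −2.52, beside −0.29 over all 12544 genes.

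Among regulators of G1, 4 genes stood apart below all lines and none above them, beside 4.15% and 2.82% of all genes. CCND1, cyclin D1, which the study follows, had 4.69 and 5.27 RPKM in COLO 320DM, against 40.7 and 38.9 in RKO, 187 and 191 in OVCAR-4, 135 and 133 in UO-31 and 61.2 and 65.6 in ABC-1. The difference was −4.04 ± 0.052 (SE, adjusted p = 3.15e-15, limma), and −2.88 to RKO. CDKN1A, the inhibitor p21, had 0.537 and 0.646 RPKM in COLO 320DM, against 73.5 and 74.6 in RKO, 206 and 224 in OVCAR-4, 246 and 239.6 in UO-31 and 11.9 and 11.7 in ABC-1, a difference of −6.26. Both genes were below every sample of the other lines. CDKN2B (p15) had 0.0937 and 0.149 RPKM in COLO 320DM, against 4.57 to 22.8 RPKM (median 6.09) in the other samples and cyclin D3 (CCND3) had 17.5 and 19 RPKM in COLO 320DM, against 43 to 119.8 RPKM (median 52.6) in the other samples, and these too stood apart below. Cyclin D2 (CCND2) was above all lines, with 50.3 and 49.1 RPKM in COLO 320DM, against 0.0386 to 39.3 RPKM (median 14.5) in the other samples and a nearest gap of 0.40. Their kinase partners CDK4, with 157 and 170.1 RPKM in COLO 320DM, against 123 to 238 RPKM (median 168) in the other samples, and CDK6, with 11.9 and 15.8 RPKM in COLO 320DM, against 5.9 to 48 RPKM (median 15.8) in the other samples, were not called. Of 21 genes, all tested and 2 with under 1 RPKM in COLO 320DM, 6 were higher and 11 lower, near the shares of 29.2% and 55.5% over all genes.

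Antigen presentation and interferon genes were mostly low. Of 26 listed 24 were tested, 6 with under 1 RPKM in COLO 320DM, with 22 lower, 2 higher and 5 apart below all lines. After rescaling 20 were lower and 4 apart below. Over all genes 55.5% were lower and 4.15% apart below on the deposited scale. HLA-C had 3.31 and 4.37 RPKM in COLO 320DM, against 245 and 241 in RKO, 371 and 387 in OVCAR-4, 262 and 258 in UO-31 and 249.8 and 263 in ABC-1, a difference of −6.02. HLA-E had 7.76 and 9.02 RPKM in COLO 320DM, against 45.8 to 89.7 RPKM (median 65.6) in the other samples. HLA alleles differ between lines and the reads were aligned to 1 reference, so these HLA levels are uncertain. PSMB9, a subunit of the immunoproteasome, had 0.39 and 0.494 RPKM in COLO 320DM, against 3.39 to 47.7 RPKM (median 9.7) in the other samples, and IFITM2, an interferon-induced membrane protein, had 2.96 and 3.62 RPKM in COLO 320DM, against 34 to 244 RPKM (median 80.8) in the other samples. TAP2, a peptide transporter, differed by −1.44 and no longer stood apart after rescaling.

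Growth factor receptors and NOTCH genes held a few outlying members. Of 20 receptors 15 were tested, 1 only through COLO 320DM and 5 with under 1 RPKM in it, with 5 higher and 9 lower, near the shares of 29.2% and 55.5% over all genes. EGFR had 0.0729 and 0.128 RPKM in COLO 320DM, against 3.74 and 3.44 in RKO, 17.3 and 19.4 in OVCAR-4, 26.6 and 27.3 in UO-31 and 38.6 and 54.6 in ABC-1, a difference of −4.88, and FGFR2 and EPHA2 also stood apart below all lines. KIT, the receptor of stem cell factor, was the 1 receptor apart above and passed the filter only through COLO 320DM, with 7.5 and 10.2 RPKM in COLO 320DM, against 0 to 0.405 RPKM (median 0.0331) in the other samples and a difference of 3.96. Of 16 NOTCH receptors, ligands and targets 12 were tested, 1 only through COLO 320DM and 4 with under 1 RPKM in it, with 5 higher and 6 lower, beside 29.2% and 55.5% over all genes. HES4 had 0.486 and 0.719 RPKM in COLO 320DM, against 14.4 to 57.6 RPKM (median 16.5) in the other samples. HEY1, another target gene of the pathway that passed only through COLO 320DM, had 4.91 and 5.42 RPKM in COLO 320DM, against 0.157 to 1.95 RPKM (median 0.368) in the other samples. These were the 2 NOTCH genes apart, in opposite directions. Over all genes 2.82% stood apart above and 4.15% below.

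Markers of the other lines' tissues and of other cells were mostly low in COLO 320DM. Of 12 lung genes 2 were tested, 1 higher and 1 lower. The lung factor NKX2-1, which passed the filter only through COLO 320DM, was higher than the mean of the other lines, at 0.942 and 0.847 RPKM in COLO 320DM, against 0 in both samples of RKO, 0.473 and 0.179 in OVCAR-4, 0 in both samples of UO-31 and 4.15 and 4.06 in ABC-1, and ABC-1 was above COLO 320DM. AGER, a receptor of lung epithelium, was lower, at 1.35 and 1.06 RPKM in COLO 320DM, against 0.846 to 3.81 RPKM (median 1.55) in the other samples, but was not called after rescaling. Of 12 kidney genes 5 were tested and all 5 were lower. Of 12 ovarian genes 10 were tested with 9 lower and EMX2 higher, at 9.8 and 10.6 RPKM in COLO 320DM and 51.6 and 50.7 RPKM in OVCAR-4. Over all genes 29.2% were higher and 55.5% lower. Of 22 genes of blood, endothelium and fibroblasts 6 were tested, with 1 higher and 4 lower. The defining markers CD3E, HBB, CDH5 and DCN were at 0 to 0.0444 RPKM in COLO 320DM, with the summed level of the list at 9.12 and 10.8 RPKM in COLO 320DM, against 3 to 346 RPKM in the other samples. PTPRC, the leukocyte antigen CD45, had 2.68 and 3.45 RPKM in COLO 320DM, against 0 to 0.117 RPKM (median 0.00793) in the other samples.

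The 10 cultures with G007-LK repeated most of the baseline pattern in separate samples. The genes tested there were those that passed the filter on the DMSO samples. Of the 354 genes apart above under DMSO 173 had passed it only through COLO 320DM. With the same rule, COLO 320DM stood apart above the other treated lines in 388 genes and below them in 474. Of the genes apart under DMSO 290 of 354 higher ones (81.9%) and 423 of 520 lower ones (81.3%) stood apart there too. The share of the treated cultures' genes was 74.7% for the higher and 89.2% for the lower ones. These are the same lines, so the repeat bears on the spread between cultures and not on the choice of lines. The 2 DMSO samples of COLO 320DM themselves differed by a median of 0.15 on the log2 scale, sample 2 being the higher.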

How the data were processed

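RNA from 5 cancer cell lines, each with DMSO or G007-LK, was sequenced as poly(A) libraries on an Illumina instrument. The authors aligned reads to hg19 reference genes with SOAPaligner/SOAP2, allowing at most 2 mismatches, and deposited 1 table of RPKM for all samples. Each sample column matched its label by name, and missing values were read as 0. Separate tables of the authors' own fold changes and probabilities between treatments were not used.

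The table held 21610 entries, of which 8 had no symbol and were left out, and entries of 371 symbols listed more than once were joined. Genes whose mean over the 5 lines reached 1 RPKM were tested on log2(RPKM + 0.5) with limma 3.58.1 in R 4.3.3, with 1 mean per line, a trended and robust prior variance and Benjamini-Hochberg adjustment. The fit was tested on simulated data. Gene positions are from a GENCODE annotation on GRCh37 (hg19), with 20167 of 21201 symbols placed, and promoters from RefSeq on GRCh38.p14.

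Genes are named from the 15 highest and 15 lowest by the gap to the nearest line with at least 5 RPKM on the higher side, up to 8 of the most different and defining members per list, MYC and CCND1, and the 3 highest and 3 lowest windows. Genes outside this rule were chosen after their values were seen. The members and the 24 lists were chosen with earlier results of these data known. Alternatives were the pseudocount, filter, scaling, variance model, replicate block, left-out samples and lines, all 20 samples in 1 fit, the G007-LK samples and, added later, the culture medium. Single values of some list members are not reported here.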

Additional observations from a re-analysis of the deposited data

How the results depend on the processing

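The number of genes higher in COLO 320DM than the mean of the other lines was 3663 as reported, 6406 with equal sums of RPKM, 5963 after quantile normalization and 2431 when the mean had to reach 5 RPKM. The number above each other line was 354 as reported, 702 with equal sums, 575 after quantile normalization, 610 with no filter, 161 when the mean had to reach 5 RPKM and 591 without OVCAR-4. The number below each other line was 520 as reported, 1146 without RKO and 905 without ABC-1. With fewer lines to pass, the second rule asks less. An alternative chosen after seeing the data kept only the lines grown in RPMI-1640, UO-31 and OVCAR-4, and gave 577 above and 2378 below; medium and line cannot be told apart. Leaving out 1 replicate at a time gave 3214 to 4052 genes higher, 6408 to 7378 lower, 314 to 412 above each line and 480 to 595 below each line. Where this left COLO 320DM or another line with 1 sample, that sample was assumed to vary like the others.

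The correlation of same-numbered deviations ran from −0.025 to 0.37 between lines and was highest for COLO 320DM with ABC-1. The median of sample 1 minus sample 2 was −0.15 in COLO 320DM and −0.10 in ABC-1. Whether replicate numbers pair samples across these lines is therefore not settled, and the main fit used no pairing. With the replicate block 3730 genes were higher and 7035 lower, and 354 and 520 stood apart.

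For 55 genes whose difference or gap is printed, the difference to the mean of the other lines was followed under these alternatives. It kept its direction and its call by the first rule in all 1424 values. The gap to the nearest line and the second rule were not part of this check. The table holds no counts, so counting error at low RPKM is unknown, and RPKM under 1 in COLO 320DM shows only that a gene was low.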
